A study of Mus musculus with 6 samples.

Results

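The genes described here are 10 rows of a table of raw read counts for 24421 gene symbols in the heads of E9.0 mouse embryos: Atf4, Atf3, Atf5, Ddit3, Ddit4, Trib3, Chac1, Asns, Ppp1r15a and Crebzf. They were chosen by symbol as genes of the integrated stress response, and Crebzf was selected on its higher count in the mutants of these same libraries. The difference between mutant and WT is therefore given for the 10 genes as a description, with no P-value, and counts of calls among them are printed only beside the share of all genes called, with nothing read from them. All 10 passed the filter on low counts, which kept 15584 of the 24421 genes.

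The study asked which transcripts differ when a core splicing protein is reduced in the developing head. It compared 3 WT libraries, labelled wild type (SnrpB +/+), with 3 libraries labelled mutant (SnrpB+/-), each made from the pooled heads of 2 embryos of different litters. In the mutants, 1 copy of Snrpb, which encodes a core protein of the spliceosomal snRNPs, was deleted by the Wnt1-Cre2 transgene over 2 exons flanked by loxP sites, so that cells of the neural tube and neural crest became heterozygous and the other cells of the head kept both copies. Embryos of both groups were taken at E9.0, before the defects of the mutants were visible. The methods state that the 2 embryos of a pool were matched by somite number. The labels give C57BL/6 as strain and CD1 as the source of cells for all 6 libraries, and the methods describe a mixed CD1 and C57BL/6J background. Whether the WT embryos carried the Cre transgene was not given in the sources used here.

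The integrated stress response joins several kinases that sense different stresses, each of which phosphorylates the translation factor eIF2. This lowers general protein synthesis but raises translation of Atf4, whose mRNA has short reading frames ahead of the main one. ATF4, a bZIP transcription factor, then raises genes for amino acid supply, for other stress factors and for the recovery of translation. Because Atf4 is controlled largely at translation, its mRNA count does not measure its protein, and its target genes are the usual readout in RNA.

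Libraries held 36378803 to 74909774 counted reads, and values are given as CPM, the count of a gene scaled to the library total and corrected by TMM, an edgeR step that evens out differences in composition. Counts of Snrpb itself came to 427.4 CPM ± 12.2 (SD, n = 3) for WT heads and to 426.4 ± 12.5 (SD, n = 3) for mutant heads, taken over the whole gene. The paper reports that the deleted allele still gives a shorter transcript, and cells without the deletion are part of these heads. A count over the whole gene therefore does not measure the loss of the deleted exons. Markers of the neuroectoderm summed to 1050.6, 876.5 and 912.2 CPM in WT and 862.3 to 871.0 in mutants. These sums did not overlap, but by a small margin, and WT replicate 1 was the highest. Of the 10 markers, 1 had groups that did not overlap, and all 10 were above 1 CPM in every library. Those of the neural crest summed to 374.8 to 473.2 and 411.9 to 452.4 CPM, also with all 10 above 1 CPM in every library. WT replicate 1 stood apart in the visceral endoderm and yolk sac genes, with 35.9 CPM where the other libraries had 8.09 to 10.5, and in the cardiac genes, with 12.5 CPM where the others had 34.4 to 123.9. Mutant replicate 2 had 0.368 CPM of Xist, the RNA of the inactive X chromosome, where the others had 65.0 to 154.6. It also had 228.3 CPM over 4 Y-linked genes, where the others had 62.8 to 173.0. By group, the Y-linked sums were 62.8 to 120.0 CPM in WT and 111.0 to 228.3 in mutants, with some overlap. All 4 Y-linked genes were higher in mutants on average, at log2 fold changes of 0.75 to 0.96. Since whole heads were used, fewer cells that express a gene and less of its RNA per cell cannot be told apart.

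Sequence just before the genes' starts is shown first, because ATF4 is known to act with C/EBP partners through a short element, the CARE, whose core is written here as TGATGNAA. In windows from 250 bases before to 50 bases after each RefSeq start (GRCm38.p6, the mm10 assembly), this core, on either strand, was present in 4 of the 10 genes, or 40%, and in 1219 of 27025 genes with a window, or 4.51%. The stretches below run 5′ to 3′ on the strand of the gene, with the match in capitals, and positions count the start base as 0. The first is from Asns at chr6:7693214-7693243 on the minus strand, with the match starting at position -23, which is ahead of the RefSeq start but inside the first exon as Gencode M21 draws it. Chac1 follows, at chr2:119351009-119351081 on the plus strand with the match at position -193, then Atf3 at chr1:191183411-191183483 on the minus strand with the match at -110, and Trib3 at chr2:152344028-152344057 on the minus strand, where the match at 14 lies inside the transcribed part by the RefSeq start but ahead of the gene as Gencode M21 places it. The Atf3 stretch lies inside the gene as Gencode M21 places it, at chr1:191170296-191218039, and not at its outer 5′ end.
Asns: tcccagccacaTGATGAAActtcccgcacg
Chac1: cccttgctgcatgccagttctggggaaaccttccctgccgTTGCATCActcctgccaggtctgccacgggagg
Atf3: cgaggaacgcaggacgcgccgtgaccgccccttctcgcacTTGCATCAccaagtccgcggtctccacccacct
Trib3: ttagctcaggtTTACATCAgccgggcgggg

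Asns carries the core on its own strand and the other 3 genes carry it on the opposite strand, so that the capitals there read as its reverse complement. The windows of Atf4, Atf5, Ddit3, Ddit4, Ppp1r15a and Crebzf did not hold these letters, which says nothing about binding elsewhere. A second element, the cyclic AMP response element TGACGTCA, is the palindrome bound by several bZIP factors. It was present in 1 of the 10 genes, Ppp1r15a, and in 2.03% of all genes with a window. The stretch of Ppp1r15a is chr7:45526269-45526320 on the minus strand, with the match at position -12. The 100 bases ahead of the Crebzf start in Gencode M21, which lies 52 bases before the RefSeq start, are chr7:90442629-90442728 on the plus strand and are set beside it because Crebzf is the gene with the largest difference among the 10.
Ppp1r15a: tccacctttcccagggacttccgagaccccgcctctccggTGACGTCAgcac
Crebzf: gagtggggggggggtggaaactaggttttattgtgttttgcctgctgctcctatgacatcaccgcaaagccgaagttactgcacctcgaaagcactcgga

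In the mutants, Atf4 and 6 other genes of the 10 had values that overlapped those of WT, and Crebzf was 1.44-fold higher. The median log2 fold change, mutant minus WT, was 0.04 over the 10 genes and 0.00 over all tested genes, and the median absolute log2 fold change was 0.121 and 0.0759. For 2 genes, Crebzf and Ppp1r15a, the lowest mutant library exceeded the highest WT library, a pattern shown by 8.32% of all tested genes. The reverse held for 1 gene, Chac1, and for 6.92% of all tested genes. At an adjusted P of 0.05, edgeR called none of the 10 and 0.00642% of all tested genes, a single gene. Without the filter on low counts, edgeR called 11 of 21083 genes, Crebzf among them. The other edgeR settings, listed below, called none of the 10. DESeq2 called 1 of the 10, Crebzf, and 0.651% of the genes it gave an adjusted P, which Chac1 did not receive. At an unadjusted P of 0.05 edgeR called 2 of the 10, Crebzf and Ddit4, and 8.43% of all tested genes. Because the comparison took part in the choice of the genes, these counts are descriptive.

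**Figure D1:**
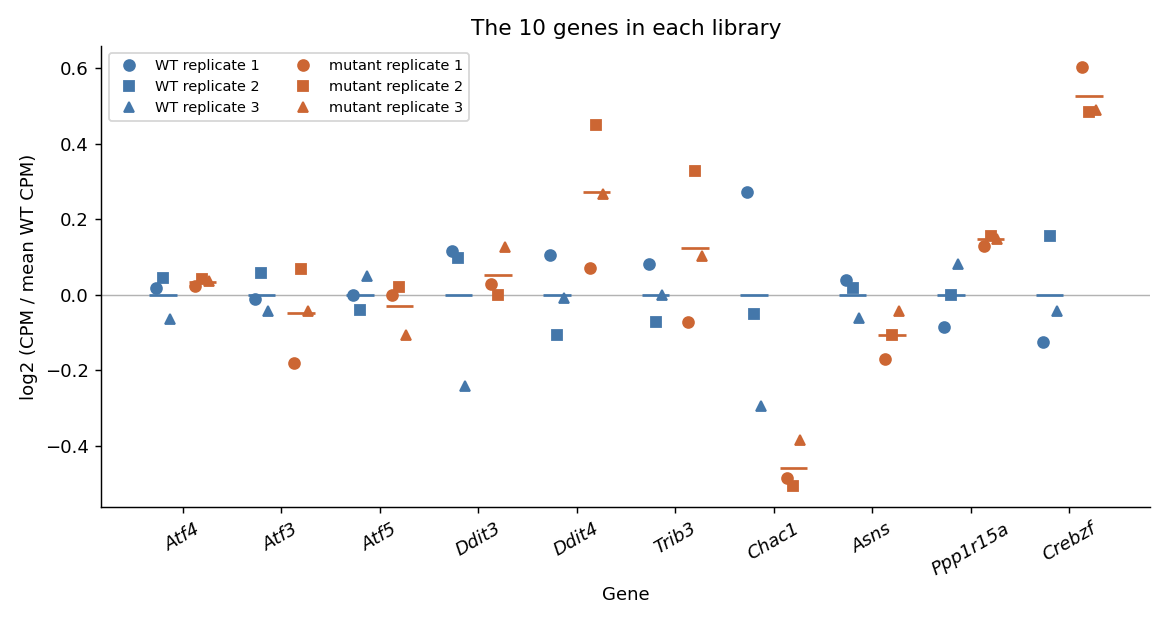
Log2 ratio of CPM to the mean WT CPM (vertical axis) for each of the 10 genes (horizontal axis), with 1 point per library and short lines at the group means (n = 3 WT, blue; n = 3 mutant, orange). Crebzf and Ppp1r15a have all mutant points above all WT points, Chac1 has them below, and the groups overlap for the other 7 genes.

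Among the transcription factors, Atf4 is the central one. Its levels were 170.5, 173.9 and 161.2 CPM in WT and 171.1, 173.5 and 172.7 CPM in mutants. The mutant libraries all lay inside the WT range, and the log2 fold change was 0.03 (SE 0.04). The gene lies at chr15:80255184-80257541 on the plus strand and had 5965 to 13191 reads per library, so that counting error was at most 1.29%.

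Atf3, an immediate response factor that is induced by ATF4 and by several other stress pathways, was at 5.91, 6.20 and 5.78 CPM in WT and 5.26, 6.25 and 5.78 CPM in mutants. The groups overlapped, with both the lowest and the highest value in a mutant library, and the log2 fold change was -0.05 (SE 0.10), from -0.11 without mutant replicate 2 to 0.01 without mutant replicate 1. Atf5, a relative of Atf4 that is likewise controlled at translation, was at 14.1, 13.7 and 14.6 CPM in WT and 14.1, 14.3 and 13.1 CPM in mutants. Its groups overlapped too, with a log2 fold change of -0.03 (SE 0.07). Its exons share 82 bases with Nup62 on the other strand, and the strand setting of the counting was not given, so a part of its reads may belong to that gene.

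Ddit3 encodes CHOP, a bZIP factor that is linked to cell death when stress persists. It was at 4.78, 4.72 and 3.73 CPM in WT and 4.50, 4.41 and 4.81 CPM in mutants. WT replicate 3 was the low library, the other 5 were close together, and the log2 fold change was 0.05 (SE 0.13), between -0.05 and 0.11 as each library was left out in turn. The gene, at chr10:127290774-127296288 on the plus strand, shares 68 exonic bases with Mars, a tRNA synthetase gene on the other strand that was at 206.8 to 239.6 CPM. Without a known strand setting the Ddit3 count is uncertain, while Mars itself had a log2 fold change of -0.05 (SE 0.05).

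Among the targets that feed back on the response, Ppp1r15a encodes GADD34, which brings a phosphatase to eIF2 and so restores translation. It was at 13.2, 14 and 14.8 CPM in WT and 15.3, 15.6 and 15.5 CPM in mutants. The groups did not overlap, but the distance between the highest WT and the lowest mutant library was smaller than the spread among the WT libraries. The log2 fold change was 0.15 (SE 0.07), or 10.9%, and stayed between 0.11 and 0.19 as each library was left out. Trib3, a pseudokinase that binds ATF4 and CHOP and dampens their activity, was near the lower end of what was counted, with 45 to 116 reads per library. It was at 1.29, 1.16 and 1.22 CPM in WT and 1.16, 1.53 and 1.31 CPM in mutants, with a log2 fold change of 0.14 (SE 0.18) that was 0.02 without mutant replicate 2.

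Ddit4 encodes REDD1, an inhibitor of mTORC1 that is induced by ATF4, hypoxia, glucocorticoids and P53. It was at 35.8, 30.9 and 33.1 CPM in WT and 35.0, 45.5 and 40.1 CPM in mutants. Mutant replicates 2 and 3 were above all WT libraries, while mutant replicate 1 was below WT replicate 1. The log2 fold change was 0.28 (SE 0.10), was 0.18 without mutant replicate 2 and reached 0.36 as the other libraries were left out in turn. Mutant replicate 2 held the highest value of Ddit4, Trib3 and Atf3, and it was also the library with the lowest Xist and the highest Y-linked counts. With the Y-linked level as a covariate, the log2 fold change was 0.22 for Ddit4 and 0.06 for Trib3. The Y-linked level was itself higher on average in mutants, so this covariate cannot fully separate embryo sex from genotype. The part that the sex of the pooled embryos has in these differences was not tested further.

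**Figure D2:**
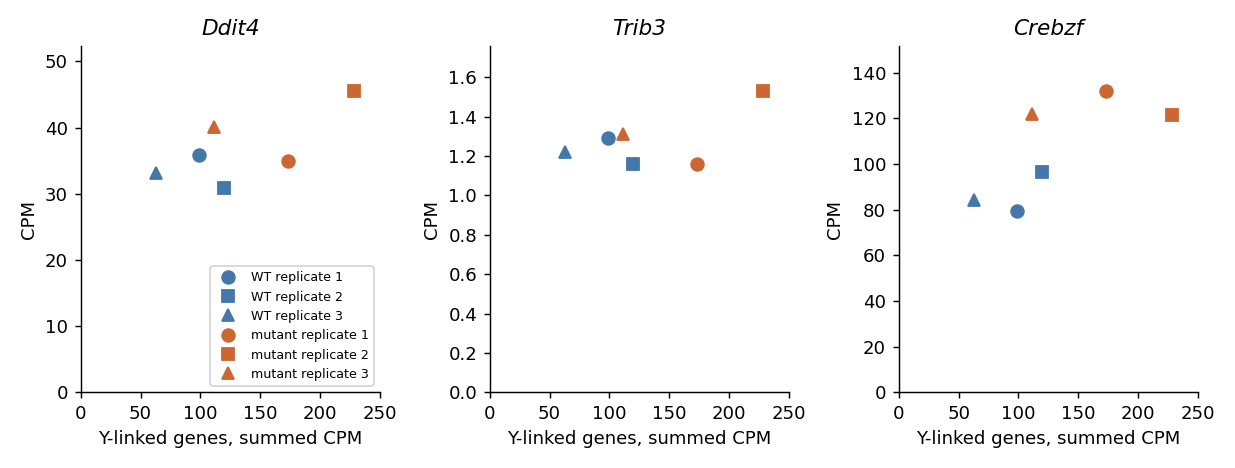
CPM of Ddit4, Trib3 and Crebzf (vertical axes, from 0) against the summed CPM of 4 Y-linked genes (horizontal axis), with 1 point per library (blue WT, orange mutant). Mutant replicate 2 lies at 228.3 CPM of Y-linked genes and is highest for Ddit4 and Trib3, while the 3 mutant libraries are above the 3 WT libraries for Crebzf at 111.0, 173.0 and 228.3 CPM of Y-linked genes.

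The last pair of targets act in metabolism. Asns, asparagine synthetase and one of the best known targets of ATF4, was at 93.2, 91.9 and 86.9 CPM in WT and 80.6, 84.2 and 88.1 CPM in mutants. Mutant replicate 3 was above the lowest WT library, so the groups overlapped, and the log2 fold change was -0.10 (SE 0.05), from -0.14 to -0.07 as each library was left out. Chac1, which degrades glutathione and is a sensitive target of ATF4 and CHOP, was at 1.40, 1.12 and 0.946 CPM in WT and 0.829, 0.816 and 0.888 CPM in mutants. All mutant libraries were lower than all WT libraries, with a log2 fold change of -0.45 (SE 0.20). These values rest on 35 to 66 reads per library, with a counting error of up to 16.9%, and WT replicate 1, the library with the yolk sac genes, was the highest. Without it the log2 fold change was -0.31.

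Crebzf encodes a bZIP protein, also called Zhangfei, that binds the cofactor HCFC1 and has been described as a partner of other bZIP factors, ATF4 among them, but it is not a classical target of the pathway. It was at 79.6, 96.6 and 84.2 CPM in WT and 131.9, 121.5 and 121.9 CPM in mutants. The lowest mutant library was well above the highest WT library, the WT mean of 86.8 CPM ± 8.78 (SD, n = 3) compared with a mutant mean of 125.1 ± 5.87 (SD, n = 3), and the log2 fold change was 0.52 (SE 0.07). It lay between 0.46 and 0.61 as each library was left out and was 0.46 with the Y-linked level as a covariate. Among all tested genes the log2 fold change of Crebzf was at percentile 96.7, and that of Chac1 was at percentile 1.71.

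The gene lies at chr7:90442729-90447994 on the plus strand. The annotation (Gencode M21) lists 9 transcripts of Crebzf, of which 1 is protein-coding, 6 are marked as targets of nonsense-mediated decay and 2 are processed transcripts. None of the other 9 genes has a transcript marked for decay, and Atf4, Ddit3, Trib3 and Asns have 1 transcript each marked as a retained intron. According to the methods the reads were counted over Gencode M2, and which of these transcripts that version holds was not looked at. A count per gene does not separate its transcripts, so which Crebzf transcripts were higher in the mutants was not analysed here. The nearest genes on either side were near 0 on the log2 scale, with 0.07 (SE 0.14) for Ccdc89, 14060 bases away, and 0.03 (SE 0.05) for Tmem126a, 2706 bases away on the other strand. Among the 11 tested genes whose starts were within 1000 kb of the Crebzf start, the next highest value was 0.43 (SE 0.20) for 2310010J17Rik.

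**Figure D3:**
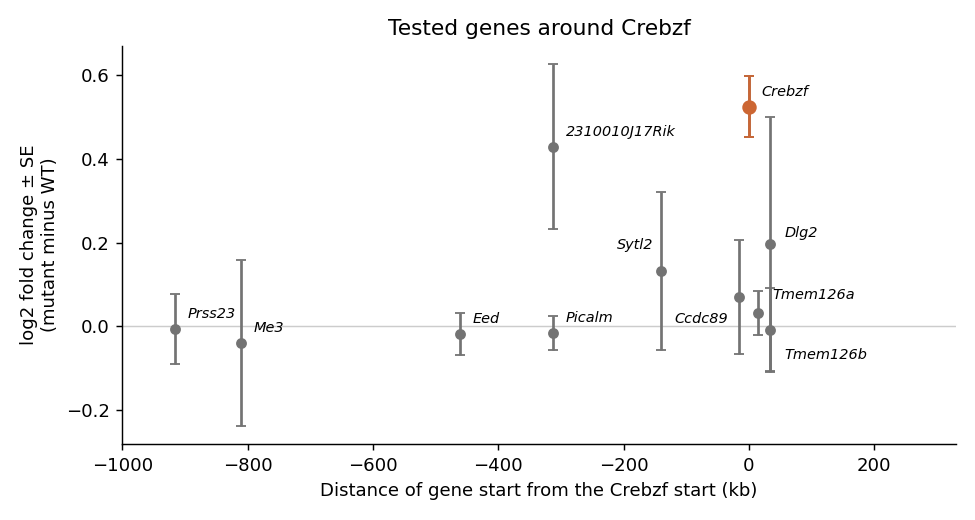
Log2 fold change, mutant minus WT, with its standard error (vertical axis) for the tested genes around Crebzf, placed by the distance of their start from that of Crebzf in kb (horizontal axis). Crebzf (orange) is at 0.52, and the nearest genes, Ccdc89, Tmem126a and Tmem126b, are at 0.07, 0.03 and -0.01.

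The 5 tested genes whose profile over the 6 libraries was closest to that of Crebzf, by the root mean square difference of log2 CPM after centring each gene, were 4732491K20Rik, Adam21, Fam166b, Snora70 and Penk. Their differences were 0.0666 to 0.0805, against a spread of 0.281 in the profile of Crebzf itself. These were genes of low counts: Adam21 was at most 0.379 CPM in any library, Fam166b at most 0.284 CPM and Snora70 at most 3.10 CPM. For Trib3, the closest were Nfatc4, Tango2, BC005561, Zfp950 and Jrkl, with differences of 0.0261 to 0.0527 against a spread of 0.132. The Trib3 profile itself rests on 45 to 116 reads per library, with a counting error of up to 14.9%.

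Per kb of exon, the 10 genes spanned a 124-fold range in WT. Atf4 was highest at 71.5 CPM per kb ± 2.78 (SD, n = 3), at percentile 96.0 of the tested genes, followed by Asns at 33.2 ± 1.22 (SD, n = 3). Crebzf at 20.8 ± 2.10 (SD, n = 3) and Ddit4 at 19.0 ± 1.40 (SD, n = 3) overlapped in their libraries. Atf5 at 7.10 and Ppp1r15a at 4.76 CPM per kb came next, near the median of all tested genes, 4.22 CPM per kb. Atf3 and Ddit3, at 2.77 and 2.57, overlapped, as did Chac1 and Trib3, at 0.707 and 0.575 CPM per kb. Atf4 and Asns were thus among the more abundant messages of these heads, and Atf3, Ddit3, Chac1 and Trib3 were below the median. In mutants, Crebzf, at 30 CPM per kb ± 1.41 (SD, n = 3), reached the level of Asns, at 30.8 ± 1.37 (SD, n = 3).

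**Figure D4:**
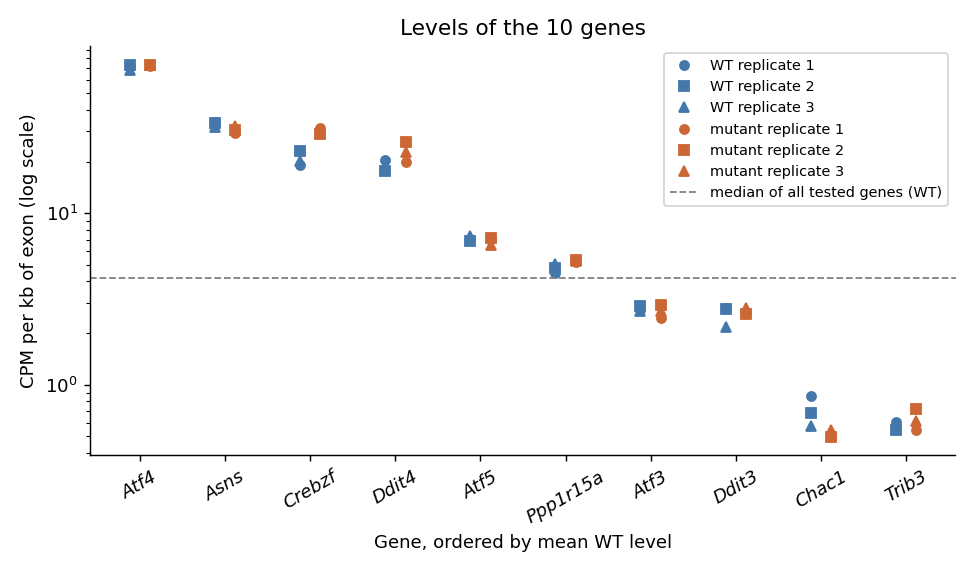
CPM per kb of exon on a log scale (vertical axis) for the 10 genes in order of their mean WT level (horizontal axis), with 1 point per library (blue WT, orange mutant) and a dashed line at the median of all tested genes, 4.22 CPM per kb. Atf4 is highest at 71.5 and Trib3 lowest at 0.575 CPM per kb in WT.

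The rest of the pathway was followed through lists of its other genes, 116 of which were tested in 9 lists. None passed the adjusted P of 0.05 with edgeR, and 2 did with DESeq2. At an unadjusted P of 0.05, 21 of the 116 (18.1%) were past the threshold with edgeR, 6 higher and 15 lower in mutants, beside the 8.43% of all tested genes given above. In all, 82 of the 116, or 70.7%, had a log2 fold change below 0, beside 49.8% of all tested genes. These lists were drawn up with earlier results of these data known, and genes of a list may vary together. The shares are therefore descriptive, and no enrichment was tested.

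Upstream, the 4 eIF2 kinases had log2 fold changes from -0.11 to 0.08. Eif2ak1 (HRI, which responds to heme and to mitochondrial stress) averaged 50.8 CPM ± 1.52 (SD, n = 3) among WT and 47 ± 1.73 (SD, n = 3) among mutant libraries, at a log2 fold change of -0.11 (SE 0.05, adjusted P with edgeR = 0.588), and was the 1 kinase at an unadjusted P under 0.05. Eif2ak3 (PERK, the kinase of the endoplasmic reticulum) was lower in every mutant library as well, but by -0.06 (SE 0.05). Eif2ak2 (PKR) and Eif2ak4 (GCN2, which senses uncharged tRNA) had values of 0.08 (SE 0.09) and -0.02 (SE 0.05), with overlapping groups. Differences in kinase mRNA do not measure kinase activity.

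Of 12 genes for eIF2, its exchange factor eIF2B and its phosphatase, 10 were between -0.08 and 0.05. The other 2 were subunits of eIF2. Eif2s2 was higher in every mutant library, at 0.09 (SE 0.04, adjusted P with edgeR = 0.559). Eif2s3x, which is X-linked, was at 230.0, 233.9 and 266.1 CPM in WT and 221.1, 181.6 and 220.3 CPM in mutants, with a log2 fold change of -0.23 (SE 0.09, adjusted P with edgeR = 0.554). Its lowest value was in mutant replicate 2, the library with 0.368 CPM of Xist. Its Y-linked copy Eif2s3y, named after its values were seen, was at 21.1, 29.7 and 15.4 CPM in WT and 44.5, 51.7 and 22.1 CPM in mutants. How well reads of these related copies were told apart was not tested. The part of embryo sex in the Eif2s3x value was not tested.

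The 22 bZIP relatives and partners were at a median of -0.03, and 1 of them, Nfe2l1, was at an unadjusted P under 0.05. Nfe2l1, a regulator of proteasome genes, had a log2 fold change of -0.09 (SE 0.04, adjusted P with edgeR = 0.528). The usual partners of ATF4 at a CARE, Cebpb and Cebpg, were at 0.04 (SE 0.19) and -0.00 (SE 0.05), and Hcfc1, the X-linked gene of the cofactor bound by CREBZF, was at -0.17 (SE 0.12) with overlapping groups. These 3 were named after their values were seen.

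Downstream, the 4 lists of ATF4 targets held 52 tested genes. At an unadjusted P of 0.05, 16 of them (30.8%) were past the threshold with edgeR, 5 higher and 11 lower in mutants, beside 8.43% of all tested genes, and 40 of the 52, or 76.9%, were below 0, with a median of -0.07. The limits given above for the lists hold for these shares too, which are descriptive. As each library was left out the genes below 0 numbered 38 to 42 of 52, and the median was -0.04 without WT replicate 1, -0.10 without WT replicate 3 and between these without the others. With the Y-linked level as a covariate the genes at an unadjusted P under 0.05 were 6 of 52 (11.5%), beside 3.32% of all tested genes, while 41 of 52 were below 0 and the median was -0.10. The summed neuroectoderm markers were lower in every mutant library too, with 876.5 CPM in the lowest WT and 871.0 in the highest mutant library. The part of these markers in the values of the target lists was not tested.

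Of 13 genes for amino acid synthesis and one-carbon metabolism, 11 were below 0, with a median of -0.08. Aldh18a1, which makes the precursor of proline and ornithine, was at 143.8, 138.0 and 130.1 CPM in WT and 116.7, 122.5 and 118.8 CPM in mutants, which gave a log2 fold change of -0.20 (SE 0.05, adjusted P with edgeR = 0.338). Gpt2, a mitochondrial alanine transaminase, had a log2 fold change of -0.14 (SE 0.05, adjusted P with edgeR = 0.5). Cth, the last enzyme of cysteine synthesis from methionine, was the 1 gene higher in every mutant library, at 0.14 (SE 0.06). The serine pathway genes Psat1 and Phgdh were at -0.08 (SE 0.04) and -0.09 (SE 0.05). Cth, Psat1 and Phgdh were named after their values were seen.

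Of 10 amino acid transporter genes, 9 were below 0, and their median of -0.18 was the lowest of the lists. This median was -0.07 without WT replicate 1, and the median of the synthesis genes was -0.05 without it and -0.13 without WT replicate 3. Slc1a5, a glutamine transporter, was at 56.7, 56.5 and 56.2 CPM in WT and 53.0, 44.0 and 49.6 CPM in mutants, with no overlap and a log2 fold change of -0.21 (SE 0.07, adjusted P with edgeR = 0.446). Slc38a7, a lysosomal glutamine transporter, had a log2 fold change of -0.22 (SE 0.09, adjusted P with edgeR = 0.541).

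Of 13 tRNA synthetase and export genes, 3 were lower in every mutant library and at an unadjusted P under 0.05, and none was past it in the other direction. Lars averaged 276.5 CPM ± 7.48 (SD, n = 3) among WT and 247.9 ± 10 (SD, n = 3) among mutant libraries, giving a log2 fold change of -0.16 (SE 0.04, adjusted P with edgeR = 0.433), and Aars was at -0.14 (SE 0.04, adjusted P with edgeR = 0.433). Iars, named after its values were seen, was at -0.23 (SE 0.07). The CARE core was in the windows of 5 of the 9 genes of this list with a window, namely Aars, Gars, Iars, Tars and Yars. Of these, Gars, Tars and Yars had log2 fold changes of -0.00 (SE 0.03), 0.00 (SE 0.04) and 0.01 (SE 0.04), so the genes with the core were found at both ends of the list.

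The 16 tested genes among the other stress targets had values on both sides of 0. Sesn2, whose product restrains mTORC1 when leucine is low and which is also a known P53 target, was at 25.5, 21 and 16.8 CPM in WT and 27.6, 29.4 and 33.9 CPM in mutants. The groups did not overlap, and the log2 fold change was 0.53 (SE 0.15), with an adjusted P of 0.448 with edgeR and of 0.0356 with DESeq2. Sel1l, a part of the machinery that removes misfolded proteins from the endoplasmic reticulum, was at 114.4, 112.1 and 114.0 CPM in WT and 101.1, 101.8 and 97.9 CPM in mutants, which came to a log2 fold change of -0.18 (SE 0.04) with an adjusted P of 0.309 with edgeR and of 0.0356 with DESeq2. Bbc3, which encodes the cell death protein PUMA and is a P53 target as well, was at 0.30 (SE 0.09, adjusted P with edgeR = 0.437).

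Vegfa at 0.16 (SE 0.05) and the death receptor gene Tnfrsf10b at 0.35 (SE 0.13) were the other genes of this list that were higher at an unadjusted P under 0.05. Ndrg1, Rhoq and Ero1l were lower, at -0.40 (SE 0.15), -0.15 (SE 0.05) and -0.13 (SE 0.05). Tnfrsf10b, Ndrg1 and Rhoq were named after their values were seen. Nupr1, Fgf21, Gdf15 and Cdsn had too few reads to be tested, so the secreted factors FGF21 and GDF15, by which stressed tissue signals to the body, gave no value.

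The neighbouring stress programs were followed by their chaperone genes. Of 17 genes for chaperones and folding factors of the endoplasmic reticulum, 13 were below 0 and 1, Sdf2l1, was at an unadjusted P under 0.05, with a log2 fold change of -0.15 (SE 0.05, adjusted P with edgeR = 0.437). Hyou1, a large chaperone of the same compartment, was lower in every mutant library by -0.08 (SE 0.04). The median of the list, -0.07, was -0.03 without WT replicate 2. The 9 genes of the mitochondrial stress program were at a median of -0.01 with none at an unadjusted P under 0.05. Dnaja3 was at 0.07 (SE 0.04) and Trap1 at -0.05 (SE 0.04), both without overlap of the groups.

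**Figure D5:**
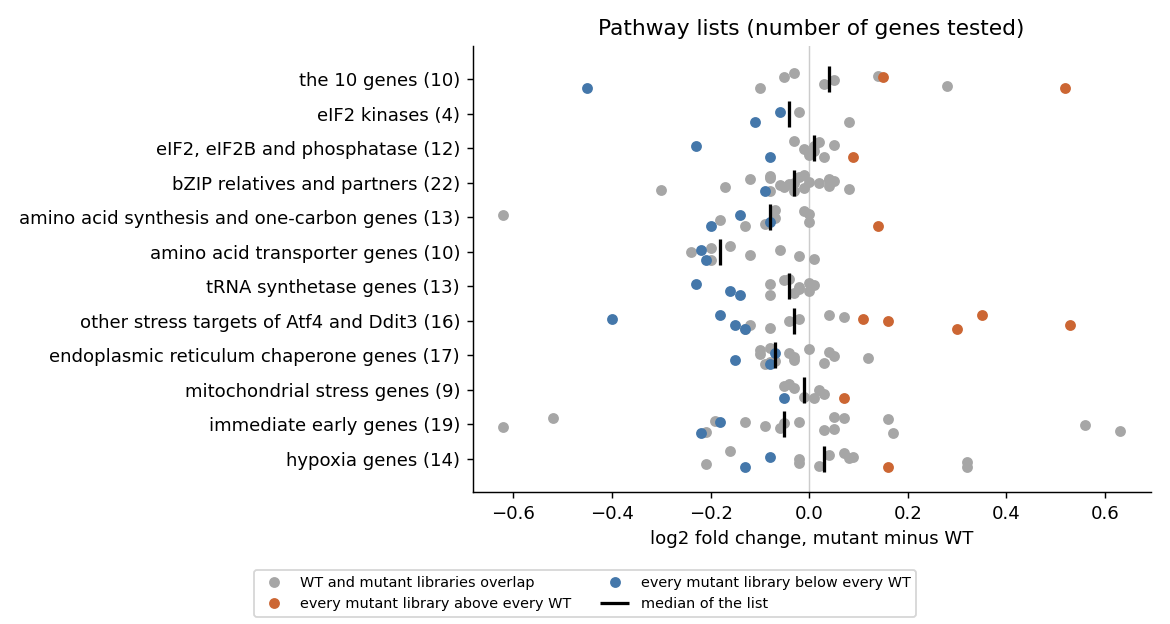
Log2 fold change, mutant minus WT (horizontal axis), of each tested gene in the lists named on the vertical axis, with the number of genes tested in brackets, a black line at each list's median, orange where every mutant library is above every WT library and blue where every one is below. Crebzf at 0.52 and Chac1 at -0.45 are the ends of the 10 genes, Sesn2 is at 0.53, and the amino acid transporter genes have the lowest median, -0.18.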

How the data were processed

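RNA of pooled E9.0 heads was depleted of ribosomal RNA, made into stranded libraries and sequenced with paired reads by the authors, who mapped the reads to mm10 with STAR (version 2.6.1d) and counted them over Gencode M2 with HTSeq (version 0.13.5) according to their methods. The labels name Trim Galore, STAR, MultiQC and featureCounts instead, and the strand setting of the counting was not given. The deposited values are raw counts per gene symbol, without normalization. All 6 libraries were used.

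Counts were fitted for all 15584 genes kept by filterByExpr with edgeR (version 4.0.16, R version 4.3.3), TMM scaling and robust quasi-likelihood dispersions, two-sided, with Benjamini-Hochberg adjustment and a threshold of 0.05. DESeq2 (version 1.42.0) was the alternative tool. The standard error was the log2 fold change divided by the root of the F statistic. No pair of libraries was a copy (chi-square per degree of freedom 10.1 to 28.2), and the common biological coefficient of variation was 0.0871. P-values measure the spread between pools. The fit was tested on simulated data with planted changes larger than those of the 10 genes and the pathway lists. It does not show how well changes of their size are found. Coordinates and exon lengths come from Gencode M21 (mm10), matched by symbol for 23376 of 24421 symbols, and promoter windows from RefSeq (GRCm38.p6).

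The members and lists were chosen with earlier results of these data known. Besides the 10 genes and the 4 kinases, the genes named were those of a list called by either tool, the 2 of each list with the smallest P among those whose groups do not overlap, and the 5 with the profile closest to Crebzf and to Trib3. Genes outside this rule are marked as named after their values were seen. Alternatives were DESeq2, its size factors, library size alone, no filter, only genes with 10 or more counts throughout, a replicate block, a Y-linked covariate and each library left out. Figures were drawn with matplotlib (version 3.10.9).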

Additional observations from a re-analysis of the deposited data

How the results depend on the processing

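The number of genes called among all tested genes was 1 with edgeR, 84 with DESeq2, 11 without a filter, Crebzf among them, 0 with the Y-linked level as a covariate and 0 to 6 as each library was left out. Among the pathway lists it was 0 with edgeR and 2 with DESeq2. The median log2 fold change of the 10 genes was 0.04, -0.02 with the Y-linked covariate and between -0.00 and 0.08 as each library was left out. Of 146 other values under an alternative, 145 kept their direction and side of the threshold or moved by less than their error, and Atf4 went from 0.03 to -0.01 with the Y-linked covariate. The causes of these shifts were not tested. Deviations of libraries with the same replicate number had correlations of 0.169, 0.0317 and 0.36, and those of the other pairs were -0.245 to 0.0875. Whether a replicate number stands for a shared batch was not given in the sources used here and was not tested. With the replicate number as a block, 1 gene was called in all and 0 in the pathway lists, and the median of the 10 genes was 0.05. WT replicate 1 correlated best with mutant replicate 1 and WT replicate 3 with mutant replicate 3, but WT replicate 2 with mutant replicate 1. Depth limits Chac1 and Trib3, with counting errors of up to 16.9% and 14.9% in the library with the fewest reads.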

Other observations

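The immediate early genes, which respond within minutes to handling as well as to signals, were at a median of -0.05 over 19 tested genes. Jun was at 28.2, 28.9 and 28.4 CPM in WT and 25.8, 23.3 and 24.4 CPM in mutants, with a log2 fold change of -0.22 (SE 0.06, adjusted P with edgeR = 0.424), and was the 1 gene of the list at an unadjusted P under 0.05. Zfp36, whose product promotes decay of mRNAs, was at -0.18. The hypoxia genes, some of which share regulators with Ddit4, were at a median of 0.03 over 14 tested genes, with 1 higher, Vegfa, and 1 lower, Ero1l, at an unadjusted P of 0.05.

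The share of genes below 0 in the ATF4 target lists was also looked at through the CARE core, a description added after the values were seen. Of 11534 tested genes with a promoter window, 314 held the core. Their median log2 fold change was -0.00, 50.6% were below 0 and 7.64% were at an unadjusted P under 0.05, where the 11220 genes without the core had 50.3% and 8.23%. Outside the 10 genes and the target lists, the 298 genes with the core had 49.7% below 0. A match to so short a sequence does not show that ATF4 acts on the gene, so nothing is concluded from these shares about the target lists. In the promoters of the endoplasmic reticulum chaperone genes the core was in 0 of 15, while the ER stress response element was in 8 of 15, or 53.3%, beside 0.137% of all genes with a window. Both the list and this element were chosen for the same stress program, so its share is not a finding of these data.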
